A study of Mus musculus with 3 samples.

Results

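The vascular endothelial growth factor (VEGF) ligands and receptors were followed through the non-cardiomyocytes (non-CMs) of the mouse heart. The group was taken as a list of 9 genes: the ligand genes Vegfa, Vegfb, Vegfc and Pgf, the receptor genes Flt1, Kdr and Flt4, and the co-receptor genes Nrp1 and Nrp2. All 9 were among the 27998 genes of the deposited matrices. The list was set by gene name and not filtered on measured values, though earlier results of these data were known when it was chosen. Hearts came from male C57BL/6J JCL mice in 3 phases, which the labels call healthy, adaptive hypertrophy and heart failure. The methods place them 0, 2 and 12 weeks after transverse aortic constriction (TAC), a ligature on the aortic arch that raises the pressure against which the left ventricle works, applied at 8 weeks of age. The age of the healthy mice and the number of hearts pooled per library were not given in the sources used here. Atria had been removed, the ventricles digested with collagenase, red cells lysed, and cardiomyocytes and debris depleted by filtering and a Percoll step before droplet single-cell RNA sequencing.

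VEGF ligands are secreted proteins that act on tyrosine kinase receptors of the blood and lymph vessel wall. VEGF-A binds the receptors encoded by Flt1 and Kdr, VEGF-B and placental growth factor bind only the Flt1 product, and VEGF-C binds the Flt4 product and, after processing, the Kdr product. Kdr encodes the receptor that carries most of the growth and permeability signal in blood vessel endothelium, Flt1 encodes a receptor of high affinity and weak kinase activity that also exists in a soluble form that sequesters ligand, and Flt4 encodes the receptor of lymphatic endothelium. Nrp1 and Nrp2 encode neuropilins, co-receptors shared with the class 3 semaphorins.

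The start regions of Flt1 and Kdr are shown, since these receptor genes, both high in ECs, differed in their order across the blood vessel subtypes. Both lie on the minus strand of chromosome 5, Flt1 at chr5:147561604-147726011 and Kdr at chr5:75932827-75978458 (GRCm38, GENCODE gene models). The windows run from 250 bases before to 50 bases after the RefSeq start (GRCm38.p6), at chr5:147725962-147726261 for Flt1 and chr5:75978406-75978705 for Kdr, both read 5′ to 3′ on the minus strand. Capitals mark GGAAG, a core of binding sites of ETS factors, or CTTCC, the same letters on the other strand.
Flt1: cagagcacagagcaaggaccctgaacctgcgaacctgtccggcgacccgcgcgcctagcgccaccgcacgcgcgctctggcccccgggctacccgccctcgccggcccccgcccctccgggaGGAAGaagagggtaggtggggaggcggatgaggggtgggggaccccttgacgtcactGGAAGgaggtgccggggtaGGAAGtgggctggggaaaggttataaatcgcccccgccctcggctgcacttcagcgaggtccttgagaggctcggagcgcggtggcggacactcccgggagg
Kdr: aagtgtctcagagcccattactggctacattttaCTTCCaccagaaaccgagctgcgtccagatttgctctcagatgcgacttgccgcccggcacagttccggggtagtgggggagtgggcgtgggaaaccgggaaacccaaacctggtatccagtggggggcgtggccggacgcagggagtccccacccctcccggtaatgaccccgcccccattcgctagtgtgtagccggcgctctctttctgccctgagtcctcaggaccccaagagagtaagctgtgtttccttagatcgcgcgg
The Flt1 window held 3 such matches and the Kdr window 1. On either strand, 71.4% of the 32851 promoter windows of 300 bases held at least 1 match. The other members lie on separate chromosomes or far apart: Vegfa at chr17:46016993-46032369, Vegfb at chr19:6982473-6987651, Vegfc at chr8:54077606-54187096, Pgf at chr12:85166635-85177790, Flt4 at chr11:49609263-49652739, Nrp1 at chr8:128358604-128503363 and Nrp2 at chr1:62703285-62818695.

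After removal of cells with fewer than 200 genes, 3892 healthy, 2231 2-week and 792 12-week cells were kept, with a median of 2589, 1495 and 1434 unique molecular identifiers (UMIs, counted transcript molecules). Each phase is 1 library, so differences between phases have no replicate check and no test. Intervals are 95% and cover counting error only. A cell joined a class when it held at least 3 UMIs of that class's marker list and these made up at least 70% of its UMIs over 5 lists. This gave endothelial cells (ECs; 1027, 1724 and 290 cells), fibroblasts (FBs; 1249, 100 and 196), mural cells, meaning pericytes and smooth muscle (389, 68 and 37), and blood cells (955, 196 and 170). None of the 9 genes was in a class list. The libraries differed in ways that touched the ECs. Erythroid transcripts in ECs were at 104, 316 and 7323 CPM (counts per 1000000 UMIs of the summed cells), the 8 cardiomyocyte transcripts at 828, 597 and 197 CPM, and the dissociation-stress list at 22982, 18435 and 17206 CPM. The EC marker list itself was at 6084, 7223 and 8252 CPM in the ECs of the healthy, 2-week and 12-week libraries. A total of 9 cell barcodes occurred in more than 1 library, and 35, 2 and 5 cells were called as doublets and kept. UMIs were read at transcript 3′ ends, so transcript isoforms such as soluble Flt1 or the Vegfa splice forms could not be separated.

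Which class expressed the ligands and which the receptors was asked first. The receptor and co-receptor genes were highest in ECs. By point value, Vegfa, Vegfb and Pgf stood higher in mural cells and FBs than in ECs of the same library. Vegfc was held by ECs and, in the mural class, almost only by cells that also held EC marker UMIs. With UMIs summed into 12 sums (4 classes in 3 libraries) and each class set against the mean of the other classes, 6 of the 9 genes were higher in ECs and 1 was lower at an adjusted p below 0.05 (edgeR, all 7939 tested genes). Over all tested genes 18.9% were higher and 19.3% lower in ECs by the same rule. In FBs 1 member was higher and 5 were lower, against 20.8% and 17.3% of all genes. In mural cells 6 were higher and 1 lower, against 19.7% and 15.3%. In blood cells 1 was higher and 6 were lower, against 25.6% and 25.8%. The spread behind these p-values is that between libraries of 3 different phases.

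Among the ligands, Vegfa, the main growth factor of blood vessels, was at 55.1, 99.5 and 50.8 CPM in mural cells of the healthy, 2-week and 12-week libraries. FBs held 42.7, 77.7 and 63.5 CPM of Vegfa and ECs 23.7, 19.2 and 36.8 CPM. In each library both stromal values stood above the EC value. At 12 weeks the intervals of mural cells (18.6 to 111, from 6 UMIs in 3 cells), FBs (45.4 to 86.5) and ECs (21.4 to 59.0) overlapped. Blood cells held 6.16, 59.9 and 2.74 CPM, of which the 2-week value came from 25 UMIs in 14 of 196 cells. The mural level of Vegfa was 1.2 ± 0.40 (SE) log2 units above the other classes (edgeR adjusted p = 0.0268; 0.136 without library as a term), while the EC level, at -0.96 ± 0.38, did not pass the threshold (edgeR adjusted p = 0.0569; 0.00114 to 0.909 over the alternatives). Without cells with 3 or more cardiomyocyte UMIs the mural call did not pass (edgeR adjusted p = 0.116). The 12-week mural level was then 0.231 of the healthy one, against 0.921 with all cells. Vegfa was sparse even where it was highest: 15.4% of healthy mural cells held a UMI, against 1.47% of healthy blood cells, at median depths of 2899 and 2615 UMIs.

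Vegfb, a ligand of the Flt1 product known from heart muscle, was sparse, with 55 UMIs in all ECs. Its mural level was 30.4, 58.8 and 25.4 CPM, its FB level 14.5, 22.2 and 22.2 CPM, and its EC level 12.2, 5.11 and 2.17 CPM. In each library the EC value was below the FB value, and the FB value below the mural value. The healthy EC and FB intervals overlapped (8.58 to 16.8 and 11.1 to 18.7 CPM). The 12-week mural value rested on 3 UMIs (5.24 to 74.2 CPM) and the 2-week FB value on 6. The difference was 1.59 ± 0.41 log2 units in mural cells (edgeR adjusted p = 0.00537) and -1.46 ± 0.39 in ECs (edgeR adjusted p = 0.00615). Neither passed without the 2-week library (edgeR adjusted p = 0.0711 and 0.115, the highest over the alternatives, the lowest being 0.000133 and 0.000141).

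Vegfc, the lymphatic growth factor, was held by ECs and, in the mural class, almost only by cells that also held EC marker UMIs. EC levels were 94.2, 79.3 and 132 CPM, mural levels 130, 85.9 and 84.7 CPM, FB levels 23.3, 33.3 and 38.1 CPM, and blood levels 1.81, 2.4 and 5.47 CPM. The EC and mural ranges overlapped, and both lay above every FB and blood value. The EC difference was 2.09 ± 0.22 log2 units (edgeR adjusted p = 6.38e-07) and the mural difference 2.47 ± 0.25 (edgeR adjusted p = 2.93e-07). Of its mural UMIs, 1 lay in the 142 cells with no EC-list UMI and 201 in the 184 cells with 4 or more. With the class gate raised to 90%, the mural difference was 0.67 and did not pass (edgeR adjusted p = 0.155).

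Pgf, which encodes placental growth factor, was at 113, 44.4 and 87.4 CPM in FBs and at 101, 122 and 84.7 CPM in mural cells. ECs held 58.6, 21.0 and 28.2 CPM, and blood cells 2.90, 4.79 and 0 CPM, where the last library's floor of 3 counts is 8.21 CPM. The FB and mural ranges overlapped and the 2-week FB value fell below the healthy EC value. Pgf was higher in FBs by 1.92 ± 0.29 log2 units (edgeR adjusted p = 2.73e-05) and in mural cells by 2.26 ± 0.31 (edgeR adjusted p = 1.54e-05), and the EC difference was 0.15 ± 0.29 (edgeR adjusted p = 0.746). A UMI of Pgf was seen in 22.4% of healthy FBs and in 0.838% of healthy blood cells, with median depths of 2978 and 2615 UMIs.

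The receptor genes were higher in ECs by the largest margins. Flt1 stood at 787, 942 and 745 CPM in ECs, at 378, 335 and 84.7 CPM in mural cells, at 15.8, 22.2 and 9.53 CPM in FBs, and at 15.2, 43.1 and 13.7 CPM in blood cells. Every EC value lay above every value of the other classes. The difference was 4.05 ± 0.23 log2 units in ECs (edgeR adjusted p = 1.56e-10). The FB values of Flt1 were 2.00%, 2.36% and 1.28% of the EC values, below the 4.22%, 4.81% and 3.31% at which the EC marker list was found in FBs.

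Kdr was at 687, 941 and 663 CPM in ECs, at 91.9, 67.8 and 50.8 CPM in mural cells, at 16.2, 18.5 and 11.1 CPM in FBs, and at 13.0, 19.2 and 10.9 CPM in blood cells. No class overlapped the ECs, and the difference of 4.69 ± 0.17 log2 units was the largest of the 9 genes (edgeR adjusted p = 1.61e-12). A UMI of Kdr was found in 70.3%, 71.1% and 50.3% of ECs, against 3.36%, 4.00% and 3.57% of FBs, with median depths of 2249, 1516.5 and 1338.5 UMIs in ECs and 2978, 1559.5 and 2405 in FBs. Kdr, too, was found in FBs at a smaller percentage of its EC level (2.36%, 1.96% and 1.68%) than the EC list.

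Flt4 was at 35.9, 34.2 and 47.6 CPM in ECs. Mural cells held 17.0, 9.04 and 0 CPM, the last with a floor of 25.4 CPM, and FBs and blood cells together held 4 UMIs. Flt4 was higher in ECs by 4.47 ± 0.39 log2 units (edgeR adjusted p = 4.93e-08).

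The neuropilins differed from each other outside the ECs. Nrp1 was at 1076, 1102 and 957 CPM in ECs, 335, 298 and 220 in mural cells, 215, 192 and 186 in FBs, and 221, 129 and 84.9 in blood cells. Every class held it, and every EC value lay above all others. The EC level was 2.17 ± 0.18 log2 units above the mean of the other classes (edgeR adjusted p = 2.11e-08). Its FB level was 20.0%, 17.4% and 19.4% of the EC level, above the 4.22%, 4.81% and 3.31% for the EC list, and 43.1% of healthy FBs held a UMI.

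Nrp2 was at 336, 259 and 184 CPM in ECs, at 98.5, 35.9 and 32.8 CPM in blood cells, at 12.6, 18.5 and 11.1 CPM in FBs and at 14.8, 4.52 and 8.47 CPM in mural cells. By point value each blood level lay above every FB and mural level, while the FB and mural values overlapped. The 2-week FB value rested on 5 UMIs, and the 2-week and 12-week blood values on 15 and 12. Nrp2 was higher in ECs by 3.60 ± 0.23 log2 units (edgeR adjusted p = 6.86e-10), higher in blood cells by 1.33 ± 0.26 (edgeR adjusted p = 0.000274) and lower in mural cells, at -2.57 log2 units (edgeR adjusted p = 3.76e-05). It was the only member called higher in blood cells. Without the healthy library this blood call was lost (edgeR adjusted p = 0.172, the highest over the alternatives).

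**Figure D1:**
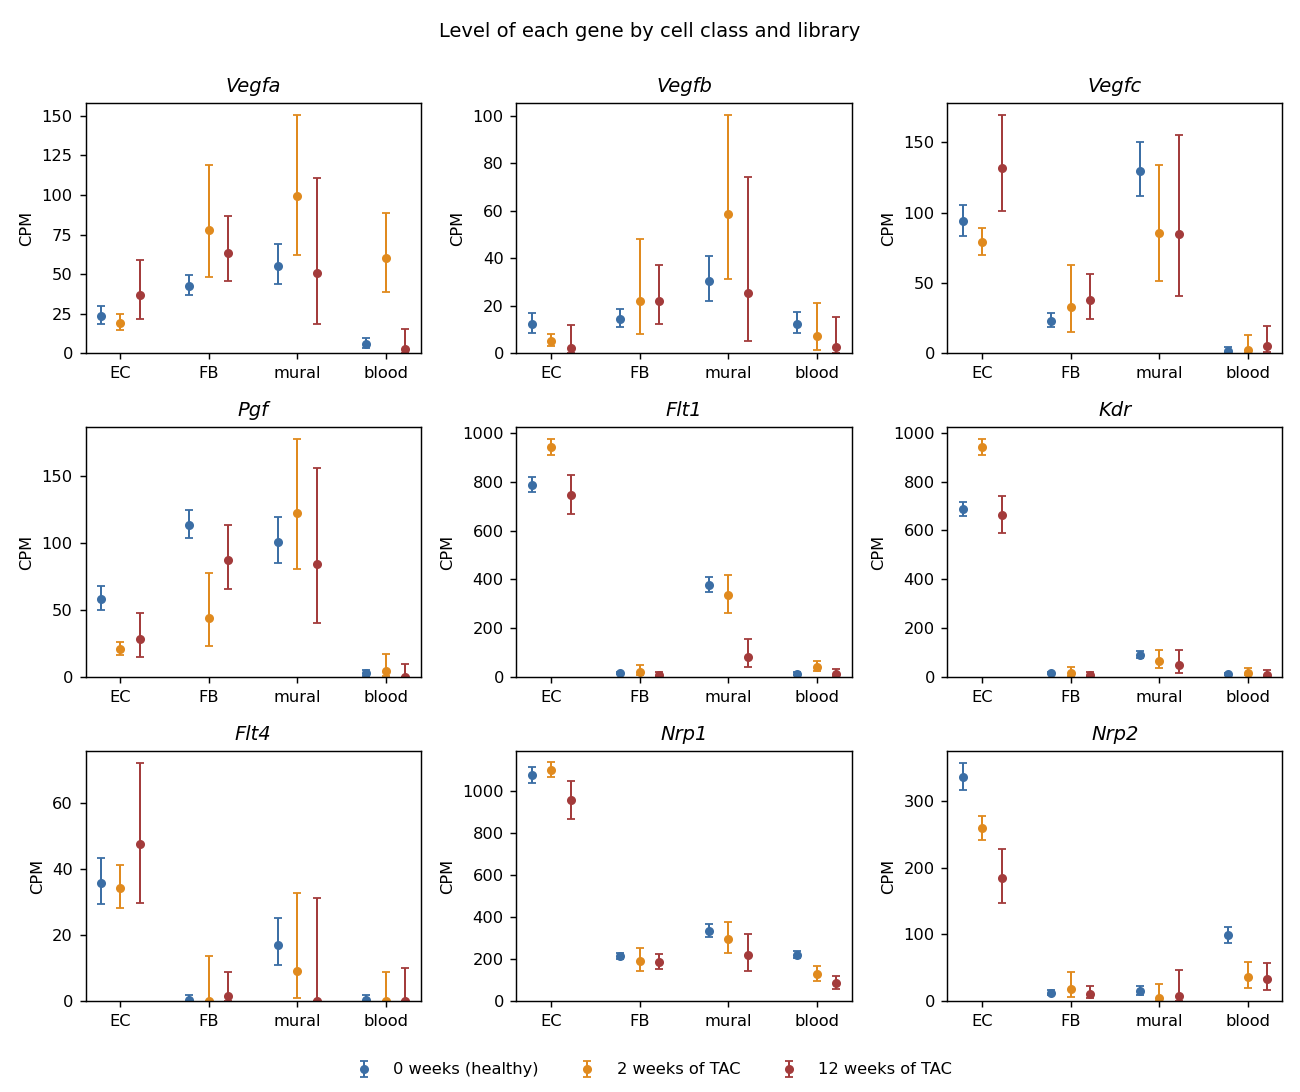
Level of each of the 9 genes (CPM, y axis from 0) in ECs, FBs, mural and blood cells, with a point per library and bars for the 95% Poisson interval of the summed UMIs. The receptor and co-receptor genes stood highest in ECs in each library (Kdr 687, 941 and 663 CPM), while Vegfa, Vegfb and Pgf stood highest in mural cells or FBs.

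The mural class held the receptor genes unevenly. UMIs of the EC list in mural cells were at 26.1%, 27.6% and 17.0% of the EC level, so the mural values of Flt1, Kdr, Nrp1 and Vegfc were read against the EC-list UMIs of each cell. Of the 494 mural cells, 142 held no such UMI, 168 held 1 to 3 and 184 held 4 or more, with median depths of 1704, 2506 and 4687 UMIs. Flt1 was at 10.7, 74.3 and 572 CPM in these bins, from 3, 34 and 582 UMIs, a ratio of 53.3 (18.1 to 259) between the last and the first. Vegfc was at 3.58, 24.0 and 198 CPM, a ratio of 55.2 (9.79 to 2190) that rests on 1 UMI in the first bin. Kdr was at 10.7, 15.3 and 139 CPM (ratio 12.9, 4.33 to 63.3), and Nrp1 at 96.7, 135 and 469 CPM (ratio 4.85, 3.29 to 7.44). The UMIs of Flt1, Vegfc and Kdr in the mural class thus lay almost all in cells that also held EC marker UMIs. Pgf was at 68.0, 111 and 108 CPM (ratio 1.59, 0.971 to 2.74), Vegfb at 35.8, 35.0 and 32.4 CPM (ratio 0.906), and Vegfa at 35.8, 52.4 and 70.8 CPM (ratio 1.98, 1.02 to 4.30). Those ligands were therefore also present in mural cells with no EC-list UMI. The bins also differed in markers of the mural list. Acta2 was at 12106, 11233 and 4824 CPM and Rgs5 at 3763, 5423 and 7223 CPM across them. Whether the joint UMIs came from droplets with several cells was not tested. Nor was the part of a different mix of pericytes and smooth muscle between the bins. With the class gate raised to 90%, the mural differences of Flt1 (0.47 log2 units, edgeR adjusted p = 0.287), Vegfc (0.67, edgeR adjusted p = 0.155), Flt4 (0.80, edgeR adjusted p = 0.53) and Vegfa (1.05, edgeR adjusted p = 0.119) no longer passed, and Kdr turned to -0.86 (edgeR adjusted p = 0.0451). Over all alternatives the adjusted p reached at most 0.299 for mural Flt1, 0.155 for Vegfc, 0.53 for Flt4, 0.258 for Vegfa and 0.964 for Kdr (edgeR, and DESeq2 in 1 of them).

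**Figure D2:**
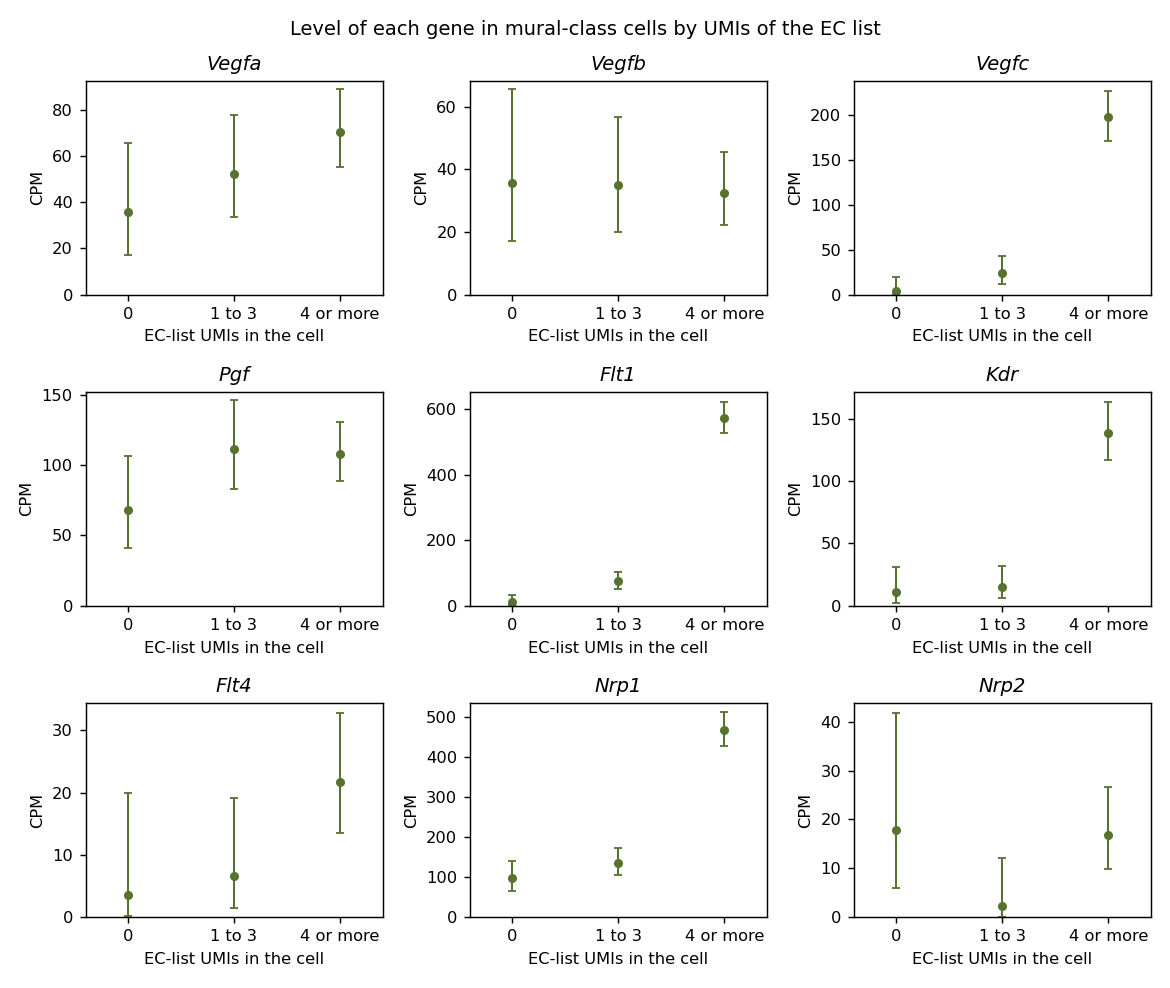
Level of each gene (CPM, y axis from 0) in mural-class cells of all libraries, by the number of EC-list UMIs in the cell, with 95% Poisson intervals. Flt1 went from 10.7 to 572 CPM and Vegfc from 3.58 to 198 CPM across the bins, while Vegfb stayed between 32.4 and 35.8 CPM.

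Levels in the ECs were next compared between phases. Kdr and Flt1 were highest in the 2-week library, Pgf and Vegfb were lower in both TAC libraries than in the healthy one, and Nrp2 was lowest at 12 weeks. Both TAC libraries are set against the same healthy library, and a gene was counted if the libraries compared held at least 20 of its UMIs in sum. At 2 weeks 2 of the 9 genes differed from the healthy library by at least 1.5-fold, both lower, against 26.6% of all counted genes in either direction and 13.4% lower. At 12 weeks 4 of 9 did (38.9% of all genes), 1 higher and 3 lower (21.8% and 17.1%). Fewer transcripts per cell and fewer cells of an EC subtype could both enter these sums, so each ratio was also computed with the 9 EC clusters (below) weighted as in the healthy library.

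The EC level of Kdr was 687, 941 and 663 CPM, with intervals of 658 to 718, 909 to 975 and 591 to 741. The 2-week value stood above the others with no overlap of counting intervals. Its ratio to the healthy library was 1.37 (1.30 to 1.45) at 2 weeks and 0.964 (0.852 to 1.09) at 12 weeks. With healthy cluster weights the ratios were 1.28 and 1.04, and without the ECs that held 3 or more cardiomyocyte UMIs the 2-week ratio was 1.47. In ECs thinned to 1000 UMIs, Kdr was seen in 46.0% (42.9 to 49.1), 55.7% (53.0 to 58.5) and 41.9% (34.8 to 49.2) of cells, after 0, 436 and 99 shallower cells were left out.

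Flt1 followed the same order with smaller distances, at 787, 942 and 745 CPM, with ratios to the healthy library of 1.2 (1.13 to 1.26) and 0.946 (0.843 to 1.06). The EC marker list had a ratio of 1.19 at 2 weeks and 1.36 at 12 weeks. At 2 weeks Flt1 thus had the ratio of the marker list and Kdr a larger one, while at 12 weeks both receptor genes lay below the list. Of the healthy, 2-week and 12-week ECs, 541, 913 and 99 held UMIs of both receptor genes, and 96, 186 and 63 held neither. Flt4 was at 35.9, 34.2 and 47.6 CPM, with ratios of 0.954 (0.727 to 1.25) and 1.33 (0.799 to 2.11) whose intervals span no difference. With healthy cluster weights the ratios were 1.22 and 1.80, for which no interval was computed. The 12-week level rested on 22 UMIs, and the lymphatic-like cluster held 7 cells in that library.

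Nrp2 in ECs was 336 CPM (316 to 357), 259 (242 to 277) and 184 (147 to 228), with no overlap of the intervals. The ratio to the healthy library was 0.771 (0.703 to 0.845) at 2 weeks and 0.548 (0.434 to 0.684) at 12 weeks, or 0.744 and 0.663 with healthy cluster weights. As a mean of per-cell values the 12-week ratio was 0.730. Nrp1 had smaller differences, with ratios of 1.02 (0.977 to 1.07) at 2 weeks and 0.889 (0.803 to 0.983) at 12 weeks. TMM scaling lowers the 12-week ratio further.

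Among the ligands in ECs, the levels of Pgf were 58.6, 21.0 and 28.2 CPM, with intervals of 50.3 to 67.9, 16.4 to 26.6 and 15 to 48.1. Both TAC values were below the healthy interval, with ratios of 0.359 (0.268 to 0.475) and 0.480 (0.251 to 0.843). Weighted to the healthy clusters the ratios were 0.356 and 0.643. The marker lists of FBs and mural cells, the classes with more Pgf, had ratios of 0.309 and 0.364 in ECs at 2 weeks and of 1.25 and 0.693 at 12 weeks, and their part in the result was not tested. Vegfb was seen as 37, 17 and 1 UMIs, or 12.2, 5.11 and 2.17 CPM, a ratio of 0.419 (0.221 to 0.763) at 2 weeks and 0.178 (0.00438 to 1.05) at 12 weeks. Vegfb is a gene of heart muscle, and the cardiomyocyte list in ECs went the same way (ratios 0.722 and 0.238). ECs with 3 or more cardiomyocyte UMIs held 13.4 CPM of Vegfb and those with fewer 5.83 CPM, and without the former the 2-week ratio was 0.468; the part of these UMIs in the result was not tested.

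Vegfa and Vegfc were higher in the 12-week ECs than in the 2-week ECs. Vegfa was at 36.8 CPM (17 UMIs) against 19.2, a ratio of 1.92 (1.05 to 3.31), and Vegfc at 132 CPM against 79.3, a ratio of 1.67 (1.24 to 2.21). Against the healthy library the 12-week ratios were 1.55 (0.858 to 2.66) for Vegfa and 1.40 (1.05 to 1.85) for Vegfc. With healthy cluster weights they were 1.13 and 0.996. At 12 weeks against 2 weeks 2 of the 8 counted genes were at least 1.5-fold apart (35.5% of all genes), both higher (20.4% higher and 15.2% lower). With healthy cluster weights these ratios were 1.31 for Vegfa and 1.24 for Vegfc, both under 1.5-fold.

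**Figure D3:**
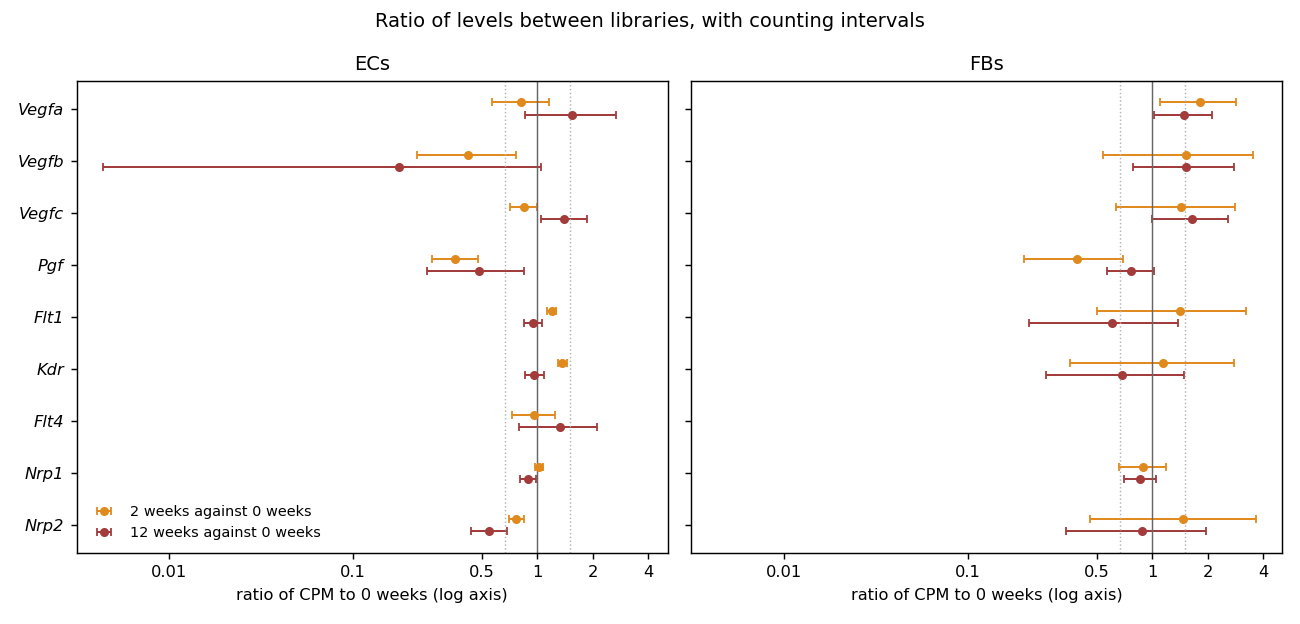
Ratio of the level (CPM) at 2 and 12 weeks of TAC to the healthy library in ECs and FBs, on a log axis, with 95% counting intervals, a solid line at a ratio of 1 and dotted lines at 1.5-fold either way; Flt4 in FBs had too few UMIs. In ECs the 2-week point of Kdr (1.37) and both points of Pgf (0.359 and 0.480) lay on opposite sides of 1.

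In FBs the phase order of the ligands was not that of the ECs, except for Pgf. At 2 weeks 3 of the 8 counted members differed by at least 1.5-fold (45.8% of all genes), 2 higher and 1 lower (22.0% and 23.8%). At 12 weeks 3 of 8 did (32.2%), 2 higher and 1 lower (16.2% and 16.0%). Vegfa in FBs was at 42.7 CPM (36.6 to 49.5), 77.7 (48.1 to 119) and 63.5 (45.4 to 86.5), ratios of 1.82 (1.1 to 2.87) and 1.49 (1.03 to 2.11). Pgf was at 113 CPM (103 to 124), 44.4 (22.9 to 77.5) and 87.4 (65.8 to 114), ratios of 0.391 (0.201 to 0.690) and 0.770 (0.571 to 1.02). Vegfa thus had its lowest FB value in the healthy library and Pgf its highest. Nrp1 was at 0.893 and 0.863 of the healthy FB level. The 100 FBs at 2 weeks included 41% with more than 10% mitochondrial UMIs, against 3.28% of healthy and 17.9% of 12-week FBs, and without such cells the 2-week ratios were 1.78 for Vegfa and 0.386 for Pgf. The count at 2 weeks was then 5 of 8 members, 4 higher and 1 lower.

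The mural and blood classes at 2 and 12 weeks were small. Mural members past 1.5-fold at 2 weeks were 5 of 9 (39.5% of all genes), 2 higher and 3 lower (17.3% and 22.2%). At 12 weeks they were 6 of 9 (52.7%), all lower (33.5% lower and 19.2% higher). Mural Vegfa was at 55.1, 99.5 and 50.8 CPM, a 2-week ratio of 1.80 (1.07 to 2.93) from 22 UMIs in 8 cells. That ratio was 1.18 without cells with 3 or more cardiomyocyte UMIs, 1.32 as a mean of per-cell values and 3.03 at the 90% gate. Mural Flt1 was at 378, 335 and 84.7 CPM, a 12-week ratio of 0.224 (0.107 to 0.415). The EC list in the 12-week mural cells was at 17.0% of the EC level, against 26.1% in the healthy library. In CPM it was 1405 (1200 to 1636) at 12 weeks and 1587 (1522 to 1654) in the healthy library, with overlapping intervals. The level of that list in ECs was 8252 CPM at 12 weeks against 6084 in the healthy library. With the gate at 90%, 1 of the 5 mural members that could be counted was past 1.5-fold at 12 weeks.

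Blood cells had 5 of 6 counted members past 1.5-fold at 2 weeks (46.2% of all genes), 2 higher and 3 lower (21.5% and 24.7%). At 12 weeks they had 3 of 5 (48.2%), all lower (21.3% lower and 27.0% higher). Nrp1 was at 221 CPM (204 to 239), 129 (97.2 to 169) and 84.9 (57.7 to 120), ratios of 0.586 (0.435 to 0.775) and 0.384 (0.259 to 0.551). Nrp2 was at 98.5 CPM (87.1 to 111), 35.9 (20.1 to 59.3) and 32.8 (17.0 to 57.4), ratios of 0.365 (0.201 to 0.613) and 0.333 (0.17 to 0.592). Both neuropilin genes had their highest blood level in the healthy library, with no overlap of its interval with the others. Vegfa was at 6.16 CPM (3.59 to 9.86), 59.9 (38.8 to 88.4) and 2.74 (0.0693 to 15.3), a 2-week ratio of 9.73 (5.05 to 19.2). The class pools leukocytes of several kinds, and a change in their mix and a change per cell cannot be told apart here.

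How the members varied within the ECs was described over 9 clusters. The 9 genes and the other pathway genes were kept out of the clustering, so that the clusters were not drawn from them. Names were given from marker lists: cluster 1 was capillary-like (682 cells, led by Car4, Rgcc and Lpl), clusters 3 and 5 arterial-like (293 cells led by Rbp7, Hey1 and Gja4, and 218 cells led by Mgp, Fbln5, Sema3g and Gja5), cluster 4 venous-like (286 cells, Vwf, Vcam1 and Selp), and cluster 8 lymphatic-like (45 cells, Ccl21a, Mmrn1, Lyve1 and Prox1). The first leading gene of cluster 5 was Cytl1, of the endocardial marker list, seen in 41.3% of its cells. Npr3 of that list was seen in 0%, and Vwf of the venous list in 31.2%. The 61 cells of cluster 6 were interferon-like and the 53 of cluster 7 proliferative-like. Clusters 0 and 2 stayed unnamed since haemoglobin transcripts were 4 of their 10 leading genes. Cluster 0 (862 cells) also held Aplnr, Car4 and Timp4 and came mostly from the 2-week library (710 cells), and cluster 2 (541 cells) was led by Mest, Pgf and Apln. Pgf is thus a defining gene of cluster 2, although the clustering did not use it. Differences between clusters carry no test. Levels are of all libraries together unless said otherwise.

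Kdr divided the blood vessel clusters. It stood at 1233 CPM (1164 to 1305) in cluster 0, 969 (921 to 1020) in the capillary-like cluster 1, 983 (906 to 1065) in the arterial-like cluster 3 and 810 (770 to 851) in cluster 2. The venous-like cluster 4 held 389 CPM (347 to 435) and the arterial-like cluster 5 held 165 (131 to 205). Cluster 5 was below cluster 1 in each library, at 80.7, 353 and 28.4 CPM against 899, 1109 and 1061.

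Flt1 had another order, with its highest values in the venous-like cluster 4 (1298 CPM, 1220 to 1379) and the arterial-like cluster 3 (1207, 1122 to 1297), whose intervals overlap. Clusters 0, 5, 6 and 1 followed at 955, 922, 879 and 841 CPM, and cluster 2 at 620 (585 to 656). The lymphatic-like cluster held 43.9 CPM (14.3 to 102), from 5 UMIs.

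The number of Flt1 UMIs per Kdr UMI brings these orders together. It cannot be read as a ratio of proteins or of transcript numbers, since each gene has its own capture rate, but it can be set between clusters. It was 0.868 (0.805 to 0.935) in capillary-like cluster 1, 1.23 (1.1 to 1.37) in arterial-like cluster 3, 3.34 (2.94 to 3.80) in venous-like cluster 4 and 5.60 (4.41 to 7.20) in arterial-like cluster 5. The order of the last pair depends on how arterial cells are drawn together: with arterial cells pooled by a marker gate the values were 6.42 for venous and 4.08 for arterial cells, and at resolution 0.5 clusters 3 and 5 fell together at 1.93. By library it was 0.903, 0.802 and 0.865 in cluster 1, and 1.68, 1.05 and 0.794 in cluster 3. Cluster 4 had 3.83, 3.01 and 4.86, and cluster 5 had 11.4, 3.10 and 23.0. Clusters 4 and 5 stood above the capillary-like cluster in each library, the cluster 5 value at 12 weeks resting on 3 Kdr UMIs. The value of cluster 3 at 12 weeks lay below that of cluster 1. In the lymphatic-like cluster it was 0.119 (0.0368 to 0.300).

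**Figure D4:**
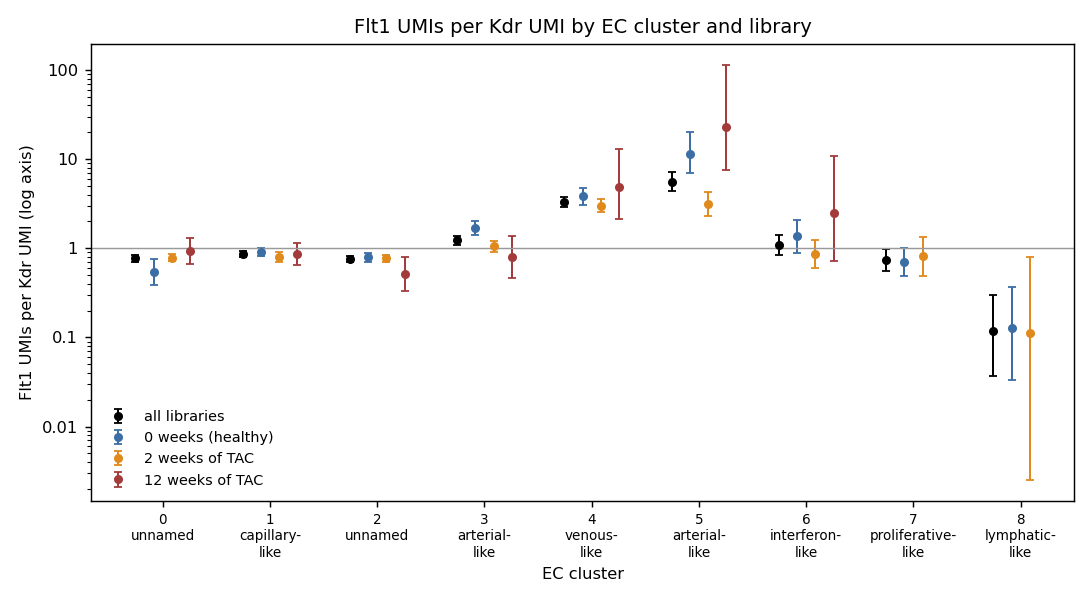
Flt1 UMIs per Kdr UMI (log axis) in the 9 EC clusters, for all libraries together and for each library, with 95% intervals for the ratio of the counts; values without UMIs of both genes are not drawn. Cluster 4 (3.34) and cluster 5 (5.60) stood above 1, and clusters 0, 1 and 2 (0.774, 0.868 and 0.766) below it.

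Flt4 marked the lymphatic-like cluster, which held 518 CPM (394 to 668) where the other clusters held between 0 and 47.4 CPM. The lymphatic-like cells were highest in each library, at 481, 567 and 960 CPM from 45, 8 and 6 UMIs. These 45 cells held 24.1% of the Flt4 UMIs of all ECs, or 41.3%, 7.02% and 27.3% in the healthy, 2-week and 12-week library. Nrp2 was also high there, at 527 CPM (402 to 678), and next in cluster 2 (444, 415 to 475) and the proliferative-like cluster 7 (422, 341 to 517), with overlapping intervals. Its lowest value was 28.8 CPM (15.8 to 48.3) in the arterial-like cluster 5, and cluster 2 was above cluster 5 in each library. Nrp1 was at 924 to 1257 CPM in clusters 0, 1, 2, 3, 4 and 6, at 547 (484 to 617) in cluster 5 and at 70.3 (30.3 to 138) in the lymphatic-like cluster.

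The ligand genes were concentrated in few clusters. Vegfc was at 212 CPM (177 to 252), 226 (194 to 261) and 327 (278 to 382) in the arterial-like cluster 3, the venous-like cluster 4 and the arterial-like cluster 5, against 31.7, 28.0 and 26.9 CPM in clusters 0, 1 and 2. The 3 vessel clusters held 21.3%, 29.6% and 26.0% of the EC Vegfc UMIs. In each library their values, the lowest being 189 CPM, lay above those of clusters 0, 1 and 2, the highest being 76.0 CPM. Vegfa was highest in cluster 5 in each library, at 61.7, 76.6 and 94.8 CPM from 13, 13 and 10 UMIs, and at 33.7 CPM in cluster 4 and 9.78 CPM in cluster 1 over all libraries. Cluster 2 held 70.5% of the EC Pgf UMIs, at 95.3 CPM (82.0 to 110), and the lymphatic-like cluster 96.6 CPM (48.2 to 173) from 11 UMIs, while clusters 0, 1 and 4 held 4.99 to 8.47 CPM. Vegfb was between 4.12 and 18.0 CPM in every cluster with overlapping intervals.

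**Figure D5:**
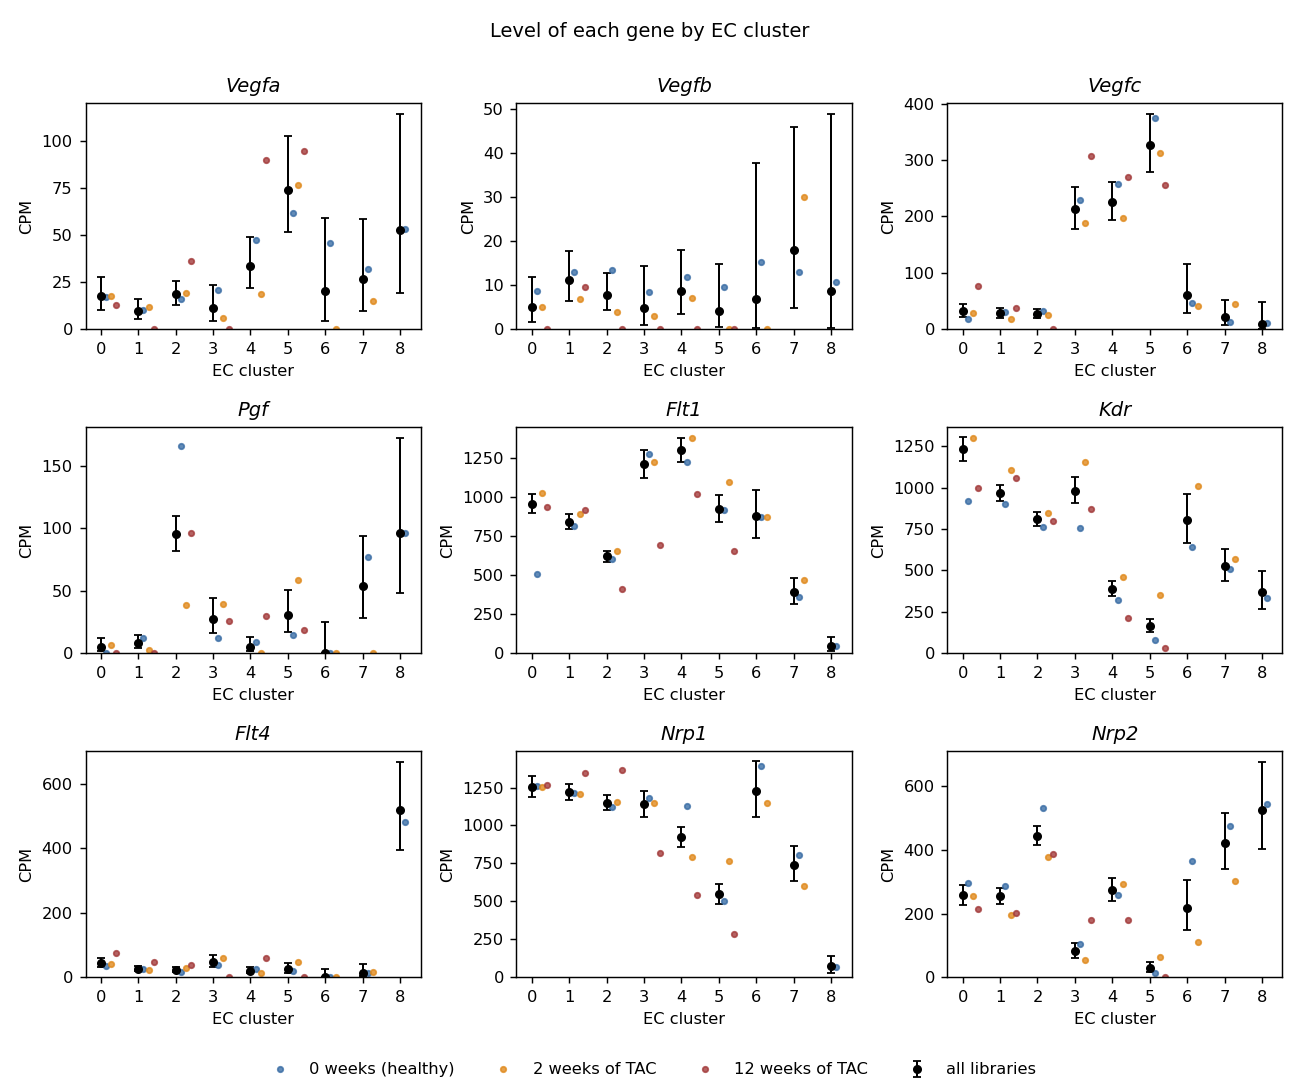
Level of each gene (CPM, y axis from 0) by EC cluster, in black for all libraries with 95% Poisson intervals and in colour for each library with at least 15 cells in that cluster. Flt4 stood at 518 CPM in cluster 8, Vegfc was highest in clusters 3, 4 and 5 (212, 226 and 327 CPM), and Kdr was lowest in cluster 5 (165 CPM).

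The EC phase differences were then read cluster by cluster. Kdr was higher at 2 weeks than in the healthy library in 9 of 9 clusters and lower at 12 weeks than at 2 weeks in 9 of 9, of which clusters 6, 7 and 8 held 5, 1 and 7 cells at 12 weeks. The 2-week ratio was 1.23 (1.1 to 1.38) in the capillary-like cluster 1, 1.53 in cluster 3, 1.43 in cluster 4 and 4.38 (2.52 to 8.01) in cluster 5, and 1.11 in cluster 2. Flt1 was higher at 2 weeks in 8 of 9 clusters and Nrp2 lower in 7 of 9, and at 12 weeks Nrp2 was lower in 8 of 9. Pgf was lower at 2 weeks in 5 of 9 clusters and higher in 3. Cluster 2 held 76.4% of the EC Pgf UMIs in the healthy library and 57.1% at 2 weeks. Its levels were 166, 38.9 and 96.6 CPM, a 2-week ratio of 0.235 (0.161 to 0.336). Cluster 5 went the other way, with 14.2, 58.9 and 19.0 CPM and a ratio of 4.14 (1.07 to 23.4) from 13 UMIs. Of the 70 Pgf UMIs in 2-week ECs, 19 lay in 1 cell.

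The genes around the VEGF pathway were taken as a list of 61 further genes: other ligands, receptor partners, hypoxia regulators, signal carriers and genes known to be induced by VEGF. In ECs 53 of them had enough UMIs for the 2-week comparison, of which 7 were at least 1.5-fold higher and 5 lower, with a median ratio of 1.06, against 13.3% and 13.4% of all genes. At 12 weeks 7 of 51 were higher and 11 lower, with a median ratio of 1.05, against 21.8% and 17.1% of all genes. Among genes with at least 50 UMIs, Sema3f and Sema3g, neuropilin ligands, had the largest ratios at 2 weeks. Sema3f was at 17.8 CPM in healthy and 73.9 in 2-week ECs, a ratio of 4.15 (3.08 to 5.69), and 3.90 (2.43 to 6.14) at 12 weeks. Sema3g was at 43.8 and 139 CPM, ratios of 3.18 (2.61 to 3.88) and 2.82 (2.03 to 3.87). The adaptor gene Nck2 had ratios of 2.15 (1.48 to 3.16) and 2.82 (1.53 to 5.00). Lower at 2 weeks were Sema3d, at 0.357 (0.195 to 0.628), the peptide gene Apln, at 0.518 (0.401 to 0.664), and the integrin gene Itgav, at 0.620 (0.389 to 0.978). Lower at 12 weeks were the kinase gene Pik3cb, at 0.290 (0.0584 to 0.884), the urokinase receptor gene Plaur, at 0.418 (0.212 to 0.747), and Hras, at 0.592 (0.393 to 0.862). Of the 11 counted VEGF-induced genes none was 1.5-fold higher in either comparison (13.3% and 21.8% of all genes), and 2 were lower at 2 weeks and 4 at 12 weeks (13.4% and 17.1%), with median ratios of 0.974 and 0.804. At 2 weeks 4 of the 11 had a ratio above 1, the highest being 1.497 (1.05 to 2.15), just under the limit. Of the 7 hypoxia regulators 2 were higher and 0 lower at 2 weeks, and 1 was higher and 2 lower at 12 weeks, against the same shares. The remaining lymphatic ligand gene, Figf (VEGF-D), was at 21.8, 40.7 and 17.5 CPM in FBs and at 1.80 CPM or less in ECs.

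The genes whose levels were most like each member's were ranked by Pearson's r of log2(CPM + 10) over the 12 sums, as a description, since the sums share libraries and classes. Flt1 was closest to Rbp7 (r = 0.997), Kdr to Cmtm8 (0.994), Flt4 to Dll1 (0.988) and Vegfc to Art3 (0.986). Nrp1 was closest to Adgrl2 (0.974), Pgf to Snrpn (0.966), Nrp2 to Hpcal1 (0.941), Vegfa to Cand1 (0.934) and Vegfb to Fuom (0.925). The next genes were Mmrn2 and Adgrf5 for Flt1 and C1qtnf9 and Ushbp1 for Kdr.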

How the data were processed

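The authors deposited, per library, a gene-by-cell matrix of raw UMI counts; per the labels these came from a droplet platform, with Cell Ranger 2.0.0 and mm10 named in the submitters' processing notes. The members and gene lists were chosen with earlier results of these data known. Matrices were read with Python 3.11.15 and scanpy 1.11.5, and cells with fewer than 200 genes removed; no doublets were removed. Summed counts per class and library were tested in edgeR 4.0.16 (quasi-likelihood, TMM scaling, class with library as a term, Benjamini-Hochberg over 7939 genes), after a test on simulated data. CPM were computed from the summed counts, with exact Poisson intervals; ratios carry conditional binomial intervals and shares Clopper-Pearson ones. ECs were clustered with Seurat 5.3.0 (30 dimensions, 20 neighbours, resolution 0.8) on 1971 genes, members left out. Named were all 9 members, the 3 pathway genes with the largest EC ratio each way (at least 50 UMIs), each member's closest genes, and class or cluster markers. Alternatives were the class gate (50% and 90%), cell and count filters, scaling, DESeq2 1.42.0, leaving out each library, and other clusterings.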

Additional observations from a re-analysis of the deposited data

Results flagged for a closer look

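A pair of members moved in opposite directions between EC clusters, with counting intervals on opposite sides of 1; the difference between clusters was not tested, since each phase is 1 library. Nrp1 at 2 weeks against the healthy library had a ratio of 1.52 (1.17 to 1.99) in the arterial-like cluster 5 and 0.705 (0.608 to 0.818) in the venous-like cluster 4. Of the 3268 Nrp1 UMIs in healthy ECs, 94 lay in 1 cell, and the part of that cell in these ratios was not tested. Flt1 at 12 weeks against the healthy library had a ratio of 1.86 (1.30 to 2.67) in cluster 0, and of 0.683 (0.468 to 0.967) in cluster 2, 0.545 (0.353 to 0.808) in the arterial-like cluster 3 and 0.714 (0.534 to 0.944) in cluster 5. Cluster 0 held 69 healthy and 83 12-week cells, and haemoglobin transcripts led it.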

How the results depend on the processing

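Of the class differences of single genes recomputed under alternatives, 440 kept direction and side of the threshold, 13 newly passed, 21 no longer passed and 6 reversed. Members called were 7 in ECs, 6 in FBs, 7 in mural cells and 7 in blood cells; leaving out each library in turn gave 6 to 8, 4 to 7, 4 to 7 (4 without the healthy library) and 5 to 8. Without the replicate block (library as a term) they were 7, 6, 6 and 7, the lost call being mural Vegfa (edgeR adjusted p = 0.136). The library numbers name phases, not shared animals. With cells removed that held any UMI of another class list, chosen after seeing the data, only 4 members could be tested: 4 were called in ECs, 0 in FBs, 1 in mural cells and 1 in blood cells, and Nrp1 in FBs (0.37 log2 units), Flt1 in mural cells (-6.24) and Kdr (0.44), Flt1 (1.06) and Nrp1 (0.28) in blood cells reversed. At the 90% gate Kdr in mural cells was -0.86.

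For the phase counts, a 2-fold limit gave 2 members in ECs at 12 weeks, 1 and 0 in FBs at 2 and 12 weeks, 1 and 2 in mural cells, 3 in blood cells at 2 weeks, and 4 and 8 of the pathway genes (12 and 18 at 1.5-fold). The 3 of 8 FB members at 2 weeks became 5 of 8 with at least 500 genes per cell, without cells over 10% mitochondrial UMIs and without called doublets (4 higher, 1 lower), and 5 of 8 as mean per-cell values (2 higher, 3 lower). The 5 of 9 mural members at 2 weeks became 2 of 6 at the 90% gate, 3 of 9 without cells with cardiomyocyte UMIs or as mean per-cell values, and 3 of 7 at 50 UMIs; the 6 of 9 at 12 weeks became 1 of 5 at the 90% gate. The 5 of 6 blood members at 2 weeks became 3 of 3 at 50 UMIs, and the 3 of 5 at 12 weeks became 7 of 9 with no minimum beyond 1 UMI. Ratios that reversed were Flt1 in FBs at 12 weeks (1.42), Vegfc in mural cells at 2 weeks (1.41) and Nrp1 in mural cells at 12 weeks (1.22) at the 90% gate, and, as mean per-cell values, Vegfb in FBs (0.615) and Flt4 in mural cells (2.31) at 2 weeks and Nrp1 (1.25) and Nrp2 (1.05) in mural cells at 12 weeks. The cause was not tested.

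Flt1 per Kdr was 1.01 in cluster 1 without integration and 0.955 by a marker gate; 1.93, 2.18 and 4.08 in clusters 3 and 5 at resolution 0.5, without integration and by the marker gate, which each pool both; and 6.42 in cluster 4 by the marker gate. Without thinning, Flt1 was seen in 73.0%, 71.1% and 62.1% of ECs (thinned 50.0%, 55.4% and 48.2%) and Kdr in 70.3%, 71.1% and 50.3%. Depth limits the 12-week library most, where 3 counts in mural cells are 25.4 CPM.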
